A study of Elaeis guineensis with 12 samples.

Results

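Mantled staminodia, the organs of a mantled oil palm flower that turn into extra carpels, were compared with staminodia of normal flowers in 6 of the 12 libraries of the series, those labelled with the tissue staminodia. The 3 mantled libraries came from 3 mantled palms and the 3 normal libraries from 2 normal palms, since normal replicates 1 and 2 are parts of a single inflorescence of normal palm 1 and replicate 3 is from normal palm 2. All palms were clonal Elaeis guineensis sampled at stage 3 of floral development, the organs were cut from cryosections by laser capture, and the labels name no further treatment, age or genotype. The palm ID of mantled palm 1 has another prefix than those of the other 4 palms, and the labels do not say which clone each palm belongs to. The palm was taken as the replicate, so the comparison has 3 mantled and 2 normal palms. In such captured samples fewer cells of a type and less RNA per cell cannot be told apart.

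In a normal female flower of oil palm the staminodia stay small and sterile around the carpels. In the mantled form, a somaclonal variant of palms raised by tissue culture, they grow into pseudocarpels, a change of organ identity like that seen when B-class MADS-box genes are lost. The B-class gene DEF1 has been tied to the trait through Karma, a retrotransposon in an intron of that gene that loses DNA methylation in mantled palms and alters splicing. The study's title names heat shock and floral regulatory genes, so the question was which genes differ in the organ that changes its identity.

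The count tables identify coding features by scaffold and model number and do not pair them with gene names, and 0 of the 100342 feature IDs matched the reference gene table. Which models are DEF1, other floral regulators or heat shock proteins was therefore not analysed here, no marker gene could be used to check the labelled tissue, and results are given by ID or scaffold. IDs of MAKER models are written without their shared start (maker-) and end (-mRNA-1:cds). Features that carry a part number within a model were summed, which gave 26087 gene models, and 22035 of them had a read in at least 1 staminodia library. Levels are CPM, the reads of a model scaled to a fixed library total of assigned reads, with TMM scaling factors over all libraries.

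Depth ranged from 2560068 to 3980120 assigned reads in the mantled libraries, against 2153546 to 4125809 in the normal libraries. The mantled libraries held 16444 to 17594 models with at least 1 read and the normal libraries 15458 to 19735. The shallowest library, normal replicate 3, stood apart in its missing models: 76 models had 0 reads there and 20 or more in each of the other 5 staminodia libraries. There were 2, 12 and 14 such models for mantled replicates 1, 2 and 3, and 0 for both libraries of normal palm 1 together. The counts are not like for like, since those of the other palms need 20 or more reads in this shallowest library. Normal replicate 3 is the 1 library of normal palm 2, so the main results are also given without it.

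Taken over all models, the differences between staminodia of mantled and normal palms overlapped in size with those between palms of the same phenotype. Between a mantled and a normal library the median absolute difference over 15050 tested models was 0.565 to 0.78 on the log2(CPM + 1) scale in 9 pairs. Between libraries of different mantled palms it was 0.632 to 0.715 in 3 pairs, and between the normal palms 0.646 to 0.671 in 2 pairs. The range of the mantled against normal pairs takes in both of the others and is wider, whereas the pair of libraries from normal palm 1 differed by a median of 0.358. The tested models were also split into 3 groups of equal size by mean level. In the group of highest level the medians were 0.363 to 0.45 for mantled against normal palms, 0.364 to 0.452 among mantled palms, 0.378 to 0.383 between normal palms and 0.2 within normal palm 1. Pairs that share a library are not independent, so these ranges are a description and were not tested.

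**Figure D1:**
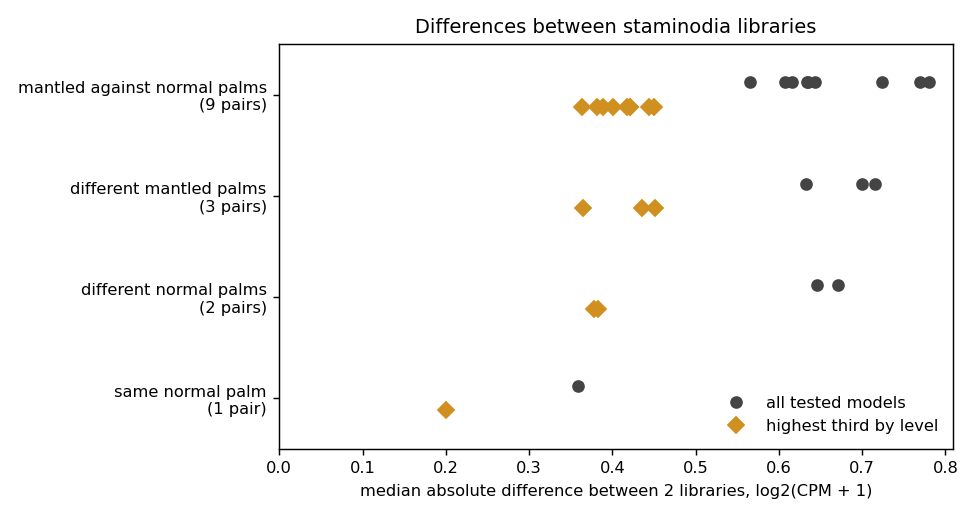
Median absolute difference between 2 staminodia libraries on the log2(CPM + 1) scale, 1 point per pair of libraries, for all 15050 tested models (circles) and for the group of highest level (diamonds). The mantled against normal pairs lie at 0.565 to 0.78 and reach below and above the 0.632 to 0.715 of pairs of palms of one phenotype, and the pair from normal palm 1 lies apart at 0.358.

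Against this spread 3 gene models passed the test between mantled and normal staminodia, 2 of them lower (0.0133%) and 1 higher (0.00664%) in mantled palms. Together they are 0.0199% of the 15050 models tested with edgeR's quasi-likelihood test at a Benjamini-Hochberg adjusted p of 0.05. The median log2 fold change over all tested models was 0.047 after TMM scaling, which sets the bulk of models near 0 by its construction. An unadjusted p under 0.05 was found for 659 models (4.38%) against the 752 that 5% of the tests would give. Of the 659, 297 were higher and 362 lower in mantled staminodia. All 3 calls fell in the group of models with the highest level. In that group 5.16% of models had a fitted change beyond 2-fold in either direction, against 39.8% in the group of lowest level, where no model passed (0 of 5017, with 85 at an unadjusted p under 0.05).

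**Figure D2:**
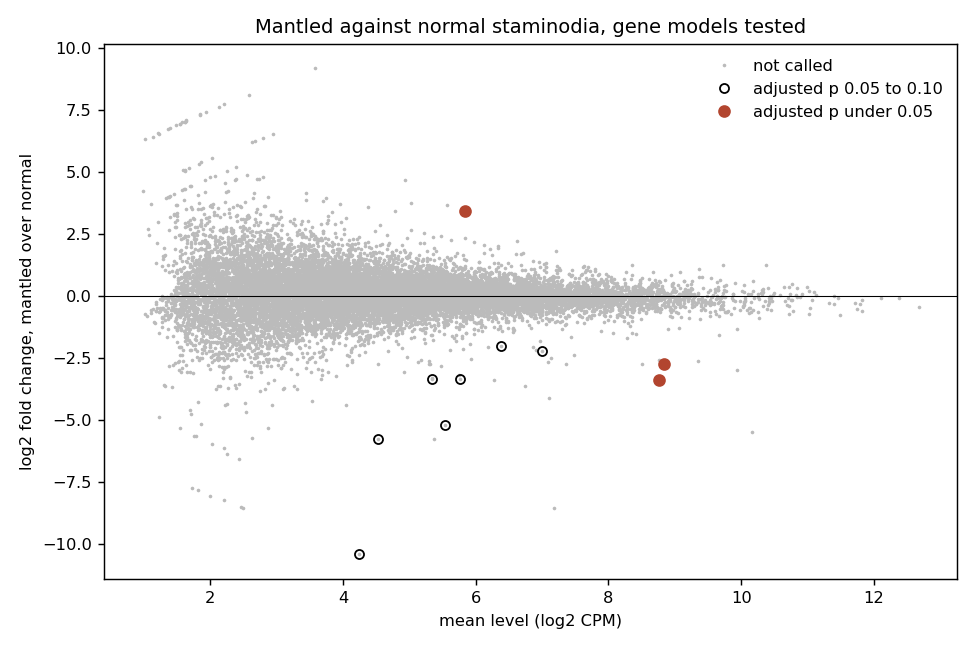
Log2 fold change of mantled over normal staminodia against mean level in log2 CPM for the 15050 tested models, each a grey point. Filled red points are the 3 models with an adjusted p under 0.05 in edgeR, and open circles the 7 further models under 0.10, all of which are lower in mantled staminodia.

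The model with the smallest p was p5_sc00322-snap-gene-9.52. It stood at 55.3, 124 and 91.2 CPM in the mantled libraries, against 883 and 1104 CPM in the pair of libraries of normal palm 1 and 914 CPM in normal palm 2. Every mantled library was far below every normal library, and both normal palms were at about the same level. The means were 90 ± 34.1 CPM in mantled palms (SD, n = 3) and 954 ± 56.4 CPM in normal palms (SD, n = 2), a log2 fold change of -3.39 (SE 0.329, adjusted p = 0.000971 in edgeR). In the carpel of the same palms its levels were 50 to 79.9 CPM in mantled and 86.4 to 232 CPM in normal libraries. These did not overlap, but the gap was far smaller than in staminodia. The share of models so separated in carpel was not counted.

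The other model that fell was p5_sc00001-augustus-gene-87.59. Its levels were 97.8, 107 and 209 CPM in the mantled libraries, against 1104 and 1025 CPM in normal palm 1 and 814 CPM in normal palm 2. The highest mantled library was thus still well under the lowest normal one. The means were 138 ± 61.7 CPM in mantled palms (SD, n = 3) and 939 ± 177 CPM in normal palms (SD, n = 2), a log2 fold change of -2.77 (SE 0.34, adjusted p = 0.00855 in edgeR). In carpel it stood at 103 to 229 CPM in mantled and 631 to 769 CPM in normal libraries.

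The model that rose was p5_sc00219-augustus-gene-5.38. It had 113, 60.8 and 92 CPM in the mantled libraries, against 8.83 and 6.03 CPM in normal palm 1 and 9.04 CPM in normal palm 2. All 3 mantled palms were high, and the normal counts behind these levels were 35, 19 and 19 reads. The means were 88.7 ± 26.4 CPM in mantled palms (SD, n = 3) and 8.24 ± 1.14 CPM in normal palms (SD, n = 2), a log2 fold change of 3.43 (SE 0.5, adjusted p = 0.0407 in edgeR). In carpel the groups overlapped, with 22.5 to 98.7 CPM in mantled and 4.87 to 24.9 CPM in normal libraries. Mantled replicate 3, at 22.5 CPM, was below normal replicates 2 and 3, at 22.8 and 24.9 CPM.

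Next by p on the side of higher levels in mantled staminodia came p5_sc00011-augustus-gene-15.48, which did not pass. Its levels were 48.2, 28.5 and 70.3 CPM in the mantled libraries, against 5.05 and 0.635 CPM in normal palm 1, and normal palm 2 had 0 reads. The groups did not overlap, but the pair of libraries from normal palm 1 differed by 1.89 on the log2(CPM + 1) scale. The fitted log2 fold change was 4.67 (SE 0.902, adjusted p = 0.165 in edgeR). In mantled carpel it stood at 13.1 to 43.5 CPM and in normal carpel at 5.49 to 23.1 CPM.

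The calls rested on few palms. Without mantled replicate 1, the palm with the other ID prefix, 0 models were called in edgeR (485 at an unadjusted p under 0.05), while the log2 fold changes of the 3 called models stood at -3.13, -2.57 and 3.22. Without normal replicate 3, where normal palm 1 alone stands for the normal group and its spread is taken from the mantled palms, 32 models were called, 1 higher and 31 lower in mantled staminodia, and all 3 were among them. In 25 of these 31 the level of normal palm 2 was above every mantled library, and in 6 it lay within or below the mantled levels, with 0 reads in 2. These 31 were chosen with the same mantled libraries. The share of all tested models with normal palm 2 above every mantled library was not counted, so the 25 are a description. Without mantled replicate 2, 5 models were called, and likewise 5 without normal replicate 1. The call of the p5_sc00219 model was also lost without mantled replicate 3 (adjusted p = 0.103) and without normal replicates 1 and 2 (adjusted p = 0.212), both in edgeR.

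**Figure D3:**
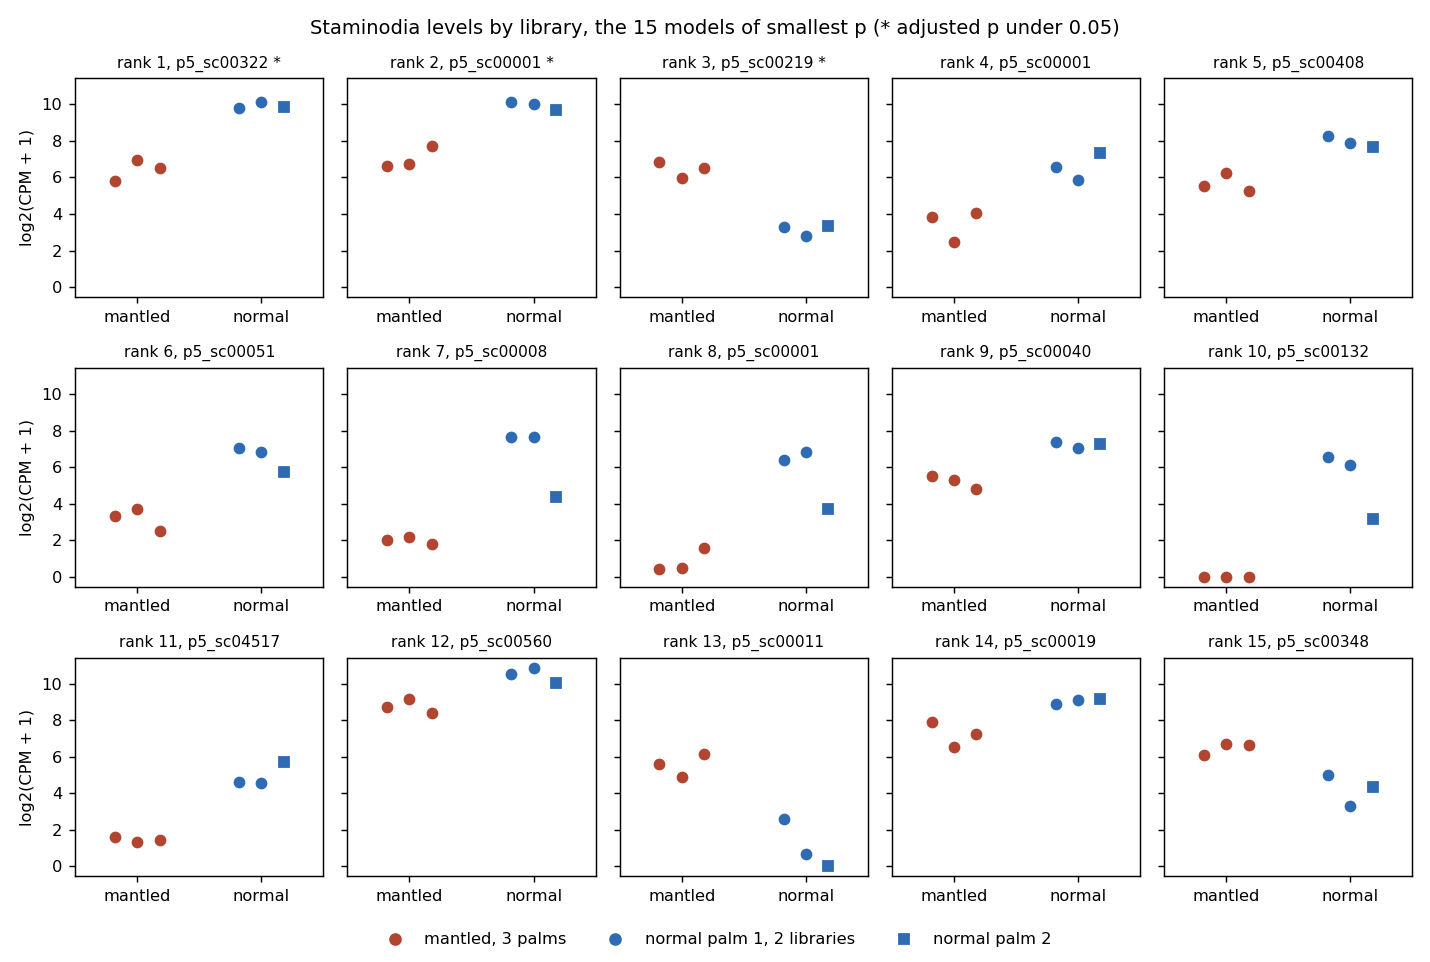
Levels of the 15 gene models of smallest p in every staminodia library, as log2(CPM + 1), mantled palms in red at left and normal libraries in blue at right, with normal palm 2 as a square. In each panel the red and blue points do not overlap, and in ranks 7, 8 and 10 normal palm 2 lies far below the libraries of normal palm 1.

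Below the threshold the order by p was led by models lower in mantled staminodia. The limit of an adjusted p of 0.10, chosen after the values were seen, took in 10 models (0.0664%), 1 higher and 9 lower. The normal palms were 2 times or more apart in 5 of the 10, and in 4 of these 5 normal palm 1 was the higher one. The share of all tested models with normal palms this far apart was not counted, so these counts are a description. A model on scaffold p5_sc00040, ranked 9, had normal palms close together: 45.5, 38.1 and 27 CPM in mantled libraries, against 167 and 130 CPM in normal palm 1 and 155 CPM in normal palm 2. A model on p5_sc00008, ranked 7, had 3.01, 3.46 and 2.43 CPM in mantled libraries, against 198 and 201 CPM in normal palm 1 and 19.5 CPM in normal palm 2. Here the normal palms differed 10.2-fold, with the mantled palms below both. Of the 10 models DESeq2 called 9 and limma voom 7 on the same palm sums, out of 48 and 35 models that they called. The 10 were picked by p on these counts, so these calls are not independent of the choice.

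Among the 25 models of smallest p, 10 had higher and 15 lower values in mantled staminodia, and in all 25 the 3 mantled libraries did not overlap the 3 normal ones. Such a separation was common: 1143 tested models (7.59%) were lower in every mantled than in every normal library and 1065 (7.08%) were higher. With plain CPM in place of TMM scaling these counts were 894 and 1365, so which direction holds more models depends on the scaling. A gap of 2 times or more between the groups, with 1 CPM added, was seen for 99 models (0.658%) lower and 76 (0.505%) higher in mantled staminodia. The libraries of normal palm 1, parts of 1 inflorescence, differed by a median of 0.322 and by at most 1.89 in log2(CPM + 1) over the 25. In 2 of the 25 this difference was above 0.5 of the absolute log2 fold change.

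Of the 25 models 6 were counted in several coding parts. They held 21 parts of 10 or more reads, compared here by palm sums in plain CPM without TMM factors. Of these, 21 had a mean difference in the direction of their model and 16 had mantled and normal palms that did not overlap. The share without overlap among all parts was not counted. The 6 models were chosen on the sum of their parts, so these counts describe how the difference is spread within them and do not support it. A model on p5_sc00051, ranked 6 and lower in mantled staminodia, had 7 parts, all with lower means in mantled palms and 5 without overlap. Its summed level was 9.04, 11.9 and 4.62 CPM in mantled libraries, against 130 and 112 CPM in normal palm 1 and 51.9 CPM in normal palm 2. By scaffold, 4 of the 25 lay on p5_sc00001, which held 557 of the tested models (3.7%), and the 25 were spread over 22 scaffolds.

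A few models had reads in the staminodia of 1 phenotype and none in the other. Of all 26087 gene models, 5 had 0 reads in all 3 mantled libraries and at least 10 in every normal library. In the other direction, 3 had 0 reads in all 3 normal libraries and at least 10 in every mantled library. The counts depend on this minimum, with 102 and 29 models at 1 read or more and 1 and 1 at 20 or more. As the 3 normal libraries come from 2 palms and the 3 mantled libraries from 3, the counts of the 2 directions are not like for like. All 8 models had reads in at least 1 carpel library of the phenotype whose staminodia had none. The most abundant of the 5, on p5_sc00132 and ranked 10, had 375 and 212 reads in normal palm 1 and 17 in normal palm 2. Taking 3 counts over the mantled group as the floor, it was at least 144-fold lower in mantled staminodia, a bound of 262-fold when set against normal palm 1 by itself and of 26.2-fold for normal palm 2 by itself. Both of its parts were at 0 in the mantled libraries, and the model did not pass the test (adjusted p = 0.0848 in edgeR). In carpel it had 0 to 9 reads in mantled libraries, against 125 and 155 in normal palm 1 and 0 in normal palm 2.

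Of the other 4 models at 0 in mantled staminodia, 2 lay on scaffold p5_sc00085 with model numbers that are 3 apart. They had 57, 62 and 17 reads and 31, 45 and 20 reads in normal replicates 1, 2 and 3, with unadjusted p-values of 0.00246 and 0.00524 in edgeR that did not pass adjustment. The remaining 2 lay on p5_sc00001 and p5_sc03108 and had 12 to 67 and 15 to 38 reads in normal libraries. The most abundant of the 3 models at 0 in normal staminodia lay on p5_sc00065. It had 114, 31 and 29 reads in mantled replicates 1, 2 and 3. With 3 counts over the normal group as the floor, its mean over mantled palms was at least 58.5-fold higher. The bound was 117-fold for mantled palm 1 by itself and 21.7-fold for mantled palm 3 by itself. This model did not pass the test either (adjusted p = 0.212 in edgeR). In carpel it had 0 to 77 reads in mantled libraries. In normal carpel it had 26 reads in replicate 2, from normal palm 1, and 0 in replicates 1 and 3.

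Models were also missing between libraries of the same phenotype. Of the models with 20 or more reads in 1 library of normal palm 1, 0.101% to 0.459% had 0 reads in its other library. Between different mantled palms the share was 1.36% to 4.44%, between the normal palms 0.486% to 5.27% and between mantled and normal palms 0.636% to 7.11%. In the pair of libraries furthest apart in depth, normal replicate 3, with 2153546 reads, lacked 5.27% of such models of normal replicate 1, with 4125809 reads, and normal replicate 1 lacked 0.486% of those of replicate 3. Palm and library cannot be told apart for palms with 1 library, and the floors above cover counting error only.

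Abundant models with a large fitted change were looked at by palm. At a mean above 6 log2 CPM, 14 of 3421 tested models (0.409%) had an absolute log2 fold change above 2.5, limits chosen after the values were seen, and 14 of the 14 were lower in mantled staminodia. This count depends on the limits: a model can pass the level limit through the palm where it is high, and the called model that rose, on p5_sc00219, lies just under it at a mean of 5.83 log2 CPM. Of these 2 passed the test, the p5_sc00322 and p5_sc00001 models above, and the other 12 did not. In 13 of the 14 the highest palm was normal palm 1. It exceeded normal palm 2 by more than 2 times in 9, with a median ratio of 5.39 over the 14.

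The most abundant of them, on p5_sc00001 and 1 model number after the model ranked 8, stood at 24.1, 23.5 and 137 CPM in mantled libraries, against 4265 and 6250 CPM in normal palm 1 and 402 CPM in normal palm 2. The levels of normal palm 2 were thus closer to those of mantled palm 3 than to those of normal palm 1. A model on p5_sc00355 had 211, 246 and 310 CPM in mantled libraries, against 3142 and 3864 CPM in normal palm 1 and 650 CPM in normal palm 2. A model on p5_sc00062 was far higher in normal palm 1 than elsewhere, with 1, 0.77 and 0.973 CPM in mantled libraries, against 675 and 726 CPM in normal palm 1 and 18.6 CPM in normal palm 2. Their log2 fold changes of -5.48, -3.01 and -8.55 had unadjusted p-values of 0.0212, 0.00207 and 0.00907 and adjusted p-values of 0.9995, 0.598 and 0.842 in edgeR.

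The carpel values were not used to choose these 14 models. They come from the same palms, however, and 13 of the 14 were highest in normal palm 1 in staminodia. The carpel counts are therefore not independent of the choice. In carpel normal palm 1 exceeded normal palm 2 by more than 2 times in 11 of the 14, including all 9 that did so in staminodia, with a median ratio of 4.82. The order of the normal palms differed between the organs for 2 of the 14. The p5_sc00322 model was lower in carpel of normal palm 1 (86.4 and 168.7 CPM) than of normal palm 2 (232 CPM), and a model on p5_sc00257 was higher there (256.6 and 225 CPM, against 73.4 CPM in normal palm 2) while in staminodia normal palm 2 had the higher mean. The p5_sc00355 model stood at 163, 233 and 547 CPM in mantled carpel, against 2499 and 2741 CPM in carpel of normal palm 1 and 481 CPM in normal palm 2, so mantled palm 3 and normal palm 2 overlapped. Mantled palm 3 was the highest mantled palm for 9 of the 14 in staminodia and for 11 in carpel. In staminodia the level of normal palm 2 was over 2 times that of the highest mantled palm in 8 of the 14, among them both called models. The 14 were chosen on these same staminodia values, so this count is a description. None of the counts of the 14 by palm was set against the 3421 tested models above the level limit. For the models where normal palm 1 stood far above all other palms, a difference between the phenotypes and a difference of that palm cannot be told apart with 2 normal palms.

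**Figure D4:**
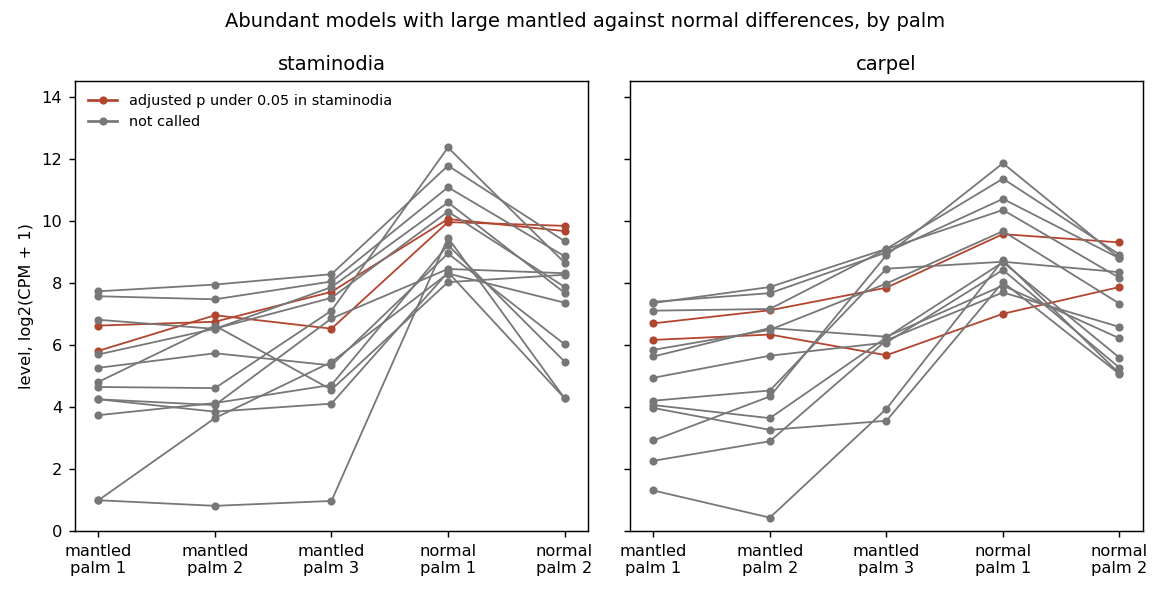
Levels in log2(CPM + 1) of the 14 models with a mean above 6 log2 CPM and an absolute log2 fold change above 2.5, by palm in staminodia (left) and in carpel (right). Lines join the values of 1 model and have no time order; red lines are the 2 models called in staminodia, and most grey lines peak at normal palm 1 in both organs.

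Coding parts were also compared within their models, since altered splicing has been described for the trait. In edgeR's test of part usage 0 of 4405 models with 2 or more tested parts (0%) passed by the Simes method and 0 by the gene-level F test. Unadjusted p-values under 0.05 were found for 27 and 56 models, against the 220 that 5% of the tests would give. A median of 2 parts per tested model had enough reads, which is the fewest that the test allows. How many parts of these models were left out for low reads was not counted.

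Of the 13044 parts tested 12 had an unadjusted p under 0.01, fewer than 1% of the tests. All 12 had a lower share in mantled staminodia, and 11 of them had 0 reads in every mantled palm. These 12 were picked by p on the same counts, and a part at 0 in mantled palms passed the filter through the normal palms. The share of such parts among all tested parts was not counted, so the shared direction is a description. Part p5_sc00001_cds_1091.13 made up 0 of 147, 278 and 299 reads of its model's tested parts in mantled palms 1, 2 and 3, against 26 of 427 reads (6.09%) in normal palm 1 and 36 of 168 (21.4%) in normal palm 2. Part p5_sc00068_cds_118.3 made up 0 of 182, 129 and 201 reads, against 32 of 583 (5.49%) and 37 of 252 (14.7%) in normal palms 1 and 2. The unadjusted p-values were 0.00017 and 0.000733 in edgeR, and both adjusted p-values were 1.

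Among parts with a higher share in mantled staminodia, the smallest p was that of p5_sc00045_cds_288.19, which also did not pass. It held 0%, 11.7% and 18.7% of the reads in mantled palms 1, 2 and 3, against 0.771% in normal palm 1 and 0.297% in normal palm 2, so mantled palm 1 was below both normal palms. Part p5_sc00018_cds_185.3 was more even, with 6.78%, 7.03% and 7.45% in mantled palms, against 0.61% and 0% in normal palms. Its counts were 25, 18 and 38 reads in mantled palms, against 3 and 0 reads in normal palms, with an unadjusted p of 0.0159 in edgeR and an adjusted p of 1 for its model.

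The number of calls between mantled and normal staminodia depended on the method. DESeq2 called 48 models, 23 higher and 25 lower in mantled staminodia, and limma voom 35, 7 higher and 28 lower. Both called 22 of these, 45.8% of the DESeq2 list and 62.9% of the limma voom list, with 6 higher and 16 lower, and the 3 models called by edgeR were among them.

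**Figure D5:**
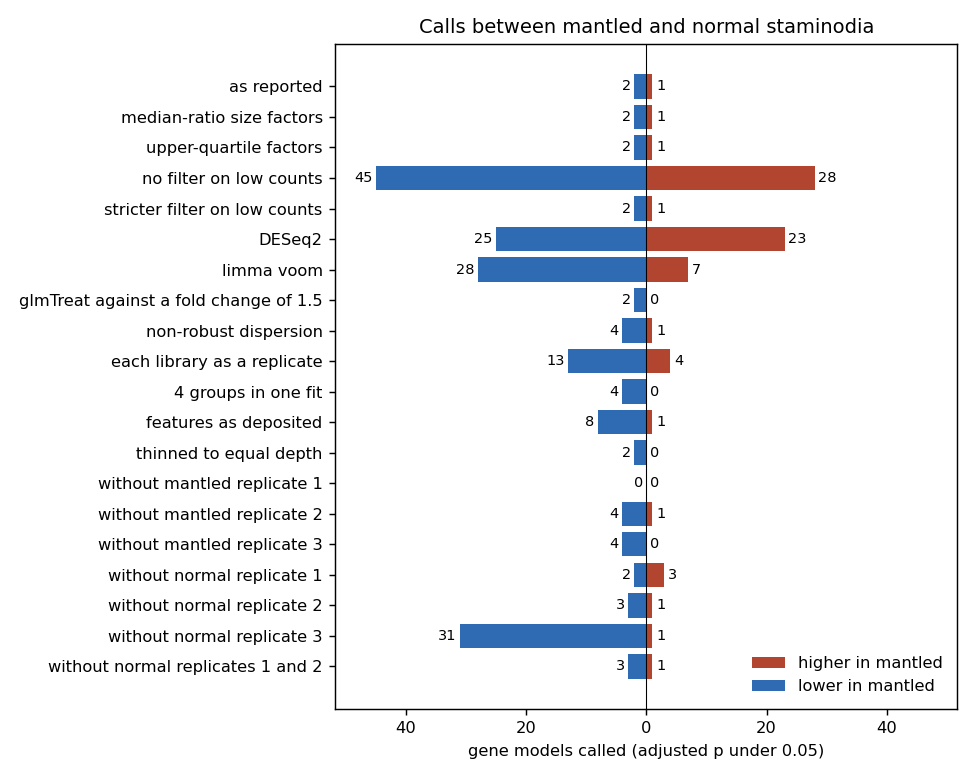
Number of gene models called between mantled and normal staminodia at an adjusted p of 0.05, higher (red, right) and lower (blue, left) in mantled staminodia, as reported and under each alternative. The count as reported is 1 higher and 2 lower, and the highest is 28 higher and 45 lower without a filter on low counts.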

How the data were processed

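The authors deposited raw read counts per coding feature, 1 table per library, as the values show: whole numbers with a different total in each library. HTSeq 0.6.1p1, TopHat2 2.0.13, cutadapt, Trim Galore and CASAVA 1.8.2 are named in the submitters' processing notes, in no stated order. Per the labels' protocols, RNA of the captured sections went through DNase treatment and ribosomal RNA depletion into stranded libraries, and reads of 2 lengths came from HiSeq or MiSeq instruments, with no record of which library had which. Build, annotation and strand setting were not given in the sources used here. Overlapping and antisense genes may share reads, and reads with several alignments were not assigned to features. In staminodia 25.3% to 30.6% of counted reads were assigned to a feature, 46.9% to 50.5% to none, 10.9% to 13% were ambiguous and 7.34% to 16.7% aligned to several places; these rows were left out.

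Features ending in a part number were summed to their model, a reading of the IDs that no annotation was at hand to check. Libraries of 1 palm were summed. Models passing filterByExpr (minimum count 10) were tested with edgeR 4.0.16 in R 4.3.3 (TMM factors, robust glmQLFit, glmQLFTest, Benjamini-Hochberg adjustment over all tested models, threshold 0.05), and each SE is the absolute log2 fold change over the square root of F. Part usage was tested with diffSpliceDGE. DESeq2 1.42.0, limma 3.58.1 and other settings were alternatives. Levels are CPM of single libraries, with the pair of normal palm 1 averaged before means and SDs over palms. By rule, up to 2 models or parts per direction are named by ID, those of smallest p. The scripts were tested on simulated counts. The comparison, lists and rules were chosen with earlier results of these data known. P-values rest on 3 and 2 palms and on spread borrowed across models, and no molecular identifiers are mentioned, so floors cover counting error only.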

Additional observations from a re-analysis of the deposited data

How the results depend on the processing

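No paired analysis was possible because mantled and normal libraries come from different palms. The count of 3 called models was 73 without a filter on low counts, 48 in DESeq2, 35 in limma voom, 17 with each library as a replicate, 9 with features as deposited and 5 with non-robust dispersions. Leaving out 1 library gave 0 to 32, and leaving out normal replicates 1 and 2 gave 4. Median-ratio and upper-quartile factors and a stricter filter gave 3, the fit of 4 groups 4, and glmTreat and thinning to equal depth 2. The cause of these differences was not tested. The p5_sc00322 and p5_sc00001 calls were kept in 18 of 19 alternatives and lost without mantled replicate 1 (adjusted p = 0.0685 and 0.692 in edgeR), over log2 fold changes of -3.67 to -3.13 and -3.19 to -2.55. The p5_sc00219 call was lost in 6 of 19, at log2 fold changes of 3.22 to 3.65 overall and adjusted p-values up to 0.692 in edgeR. The p5_sc00011 model passed in 3 of 19: without a filter, in DESeq2 and without normal replicate 1. No named model changed direction. Part usage gave 0 calls in all 11 alternatives. The scalings of the counts of separated models were added after the data were seen. A planned fit with palm as a random effect was not run. For the 6 libraries of 5 palms limma returned no value for the correlation it needs, and the reason was not tested. The number of palms and the low counts of many models limit what could be detected.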
